A study of Mus musculus with 6 samples.

Results

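The 10 genes described here mark the mural and mesenchymal cells of the pancreas: pericytes, vascular smooth muscle cells and the stellate cells that share many of their genes. They are Pdgfrb, Pdgfra, Cspg4, Rgs5, Mcam, Thy1, Des, Acta2, Tagln and Myh11, taken by symbol from the 46959 genes of the expression table, and all 10 were present. The study sorted cells from islets of adult mice by fluorescence and sequenced their RNA, with 2 libraries for each of 3 populations. All mice were bitransgenic offspring of a cross between an Ins1-H2b-mCherry line, in which the insulin 1 promoter drives a nuclear red reporter, and a Ucn3-eGFP line, in which regulatory sequence of urocortin 3 drives a green one. The immature beta cell population was positive for mCherry only, the mature beta cell population was positive for both reporters, and the double negative population carried neither. The labels name no treatment, and all groups carry both transgenes. The islets of 10 to 12 mice were pooled for each replicate, cultured overnight and dissociated with trypsin before sorting, so each value stands for a pool and not for a mouse. The design text calls the mice female, whereas the sample labels call replicate 1 of each population male. Xist, which is transcribed from the inactive X chromosome, was between 21.4 and 129 RPKM in all 6 libraries.

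Pericytes are embedded in the basement membrane of capillaries and are recruited by PDGF-B, which endothelial cells release and which pericytes bind through PDGF receptor beta. Islets are densely supplied with capillaries, and their pericytes touch both endothelial and endocrine cells. Stellate cells lie around ducts, acini and islets, store vitamin A when quiescent, and take up smooth muscle actin and secrete collagen when activated.

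Promoters from RefSeq (GRCm38.p6) were read for 6 of the 10 genes, namely Acta2, Cspg4, Des, Mcam, Pdgfra and Rgs5. For each, the 250 bases before the RefSeq start were taken. The windows of Acta2, Cspg4 and Mcam run into the annotated gene. The pair printed here shows what lies upstream of the genes with the largest (Pdgfra) and the smallest (Rgs5) ratio of immature to double negative. The choice was among the 5 of these genes whose immature libraries both lay above both double negative ones. Both are written 5′ to 3′ on the plus strand, and capitals mark CG dinucleotides. The first is chr5:75152001-75152250 and the second chr1:169655251-169655500, both ending upstream of the annotated gene.
Pdgfra: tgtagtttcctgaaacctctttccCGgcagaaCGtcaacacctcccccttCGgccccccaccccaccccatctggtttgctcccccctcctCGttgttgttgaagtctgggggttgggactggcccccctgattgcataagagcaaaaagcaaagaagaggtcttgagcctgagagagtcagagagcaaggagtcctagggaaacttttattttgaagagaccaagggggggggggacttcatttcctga
Rgs5: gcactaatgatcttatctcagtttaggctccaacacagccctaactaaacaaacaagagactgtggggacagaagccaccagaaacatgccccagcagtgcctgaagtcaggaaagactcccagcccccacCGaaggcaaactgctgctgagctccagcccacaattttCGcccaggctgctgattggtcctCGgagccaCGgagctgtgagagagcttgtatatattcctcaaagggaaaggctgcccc
Both windows held 4 CG dinucleotides, against a median of 6 over 32851 promoters of the same length, while the window of Mcam held 25. The CArG box, the site of serum response factor that smooth muscle genes are known for, was searched on both strands in its strict form, a pair of C, then 6 bases that are each A or T, then a pair of G. This form matched in none of the 6 windows and in 1.47% of all promoters. Sites that depart from it by a base were not counted, and the serum response factor sites known from the Acta2 promoter are of that kind. The letters TATAAA were also in none of the 6 on either strand and in 12.4% of all promoters. Pdgfrb, Thy1, Tagln and Myh11 are not among the 6, so these counts say nothing about them. A window without a match says only that these letters are not in these bases.

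Expression was deposited as RPKM, read counts scaled to gene length and library size. The low values stepped in whole reads, so each library's depth could be read from them. The implied totals were 2393841 and 3448926 reads in the immature pair of libraries, 23718091 and 26824380 in the mature pair, and 22063880 and 22731664 in the double negative pair. One read is therefore worth the most RPKM in the immature libraries, where several of the genes rest on few reads. Intervals on reads cover counting error only. The sorted populations held RNA of other cell types. The summed level of 10 endothelial markers was 620 and 623 RPKM in the immature pair of libraries, 4.99 and 4.06 in the mature pair, and 153 and 159 in the double negative pair. The sum of 8 macrophage markers reached 725 and 739 RPKM in the immature pair, at most 59.4 in the other 4 libraries, and that of 6 acinar enzymes was 8452 and 26626 against at most 2003. The sum of 5 beta cell markers was lower in the immature libraries (56968 and 62483) than in the mature (204985 and 220410), and that of 5 alpha cell markers was 29086 and 19784 in the immature libraries against 658 and 863 in the mature. The part of these cell types in the results below was not tested, and in bulk RNA fewer cells of a type and less RNA per cell cannot be told apart.

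Of the 10 genes, 9 exceeded the mature level in the immature libraries, against 49.8% of all genes tested. Against the double negative level the same count was 9, where 45.9% of all genes were higher. In the mature libraries 8 of the 10 lay below the double negative level, where 31.2% of all genes did; that count was 5 without mature replicate 1, without mature replicate 2 or without double negative replicate 2, and 4 after quantile normalization. These calls are from limma on log2(RPKM + 1) at an adjusted p under 0.05 over 13367 genes. In the opposite directions the shares of all genes were 15.5%, 10.6% and 23.1%, and none of the 10 genes was called that way. The libraries of the populations did not overlap in these directions for 10, 9 and 10 of the 10 genes, against 60.0%, 59.1% and 49.4% of all genes. Voom on reads recovered from the RPKM values called 10, 8 and 10 of the 10, against 49.3%, 44.9% and 41.3% of the genes it tested. Large shares of all genes thus moved the same way. The median difference over the 10 genes was 2.07, 1.12 and -0.80 in the 3 comparisons, against 0.29, 0.24 and -0.08 over all tested genes. Each population serves in 2 of the comparisons, so these are not independent. A gene had to reach 1 RPKM in 2 libraries to be tested, and Pdgfra, Cspg4, Des and Myh11 did so through the immature libraries alone. For these 4 the filter selected a high immature level, so their differences between the immature and the other libraries are given without a p-value and their part in the counts is a description. The split of all genes depended on scaling. Immature against mature, 6655 genes were higher and 2073 lower as deposited, 4499 and 4300 after median-ratio rescaling, and 3122 and 5359 after quantile normalization. Against the double negative libraries the same split was 6142 and 1421, then 3765 and 3052, then 2864 and 4348. These rescalings moved the median of all genes from 0.29 to 0.00 and -0.17 and from 0.24 to 0.01 and -0.11.

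**Figure D1:**
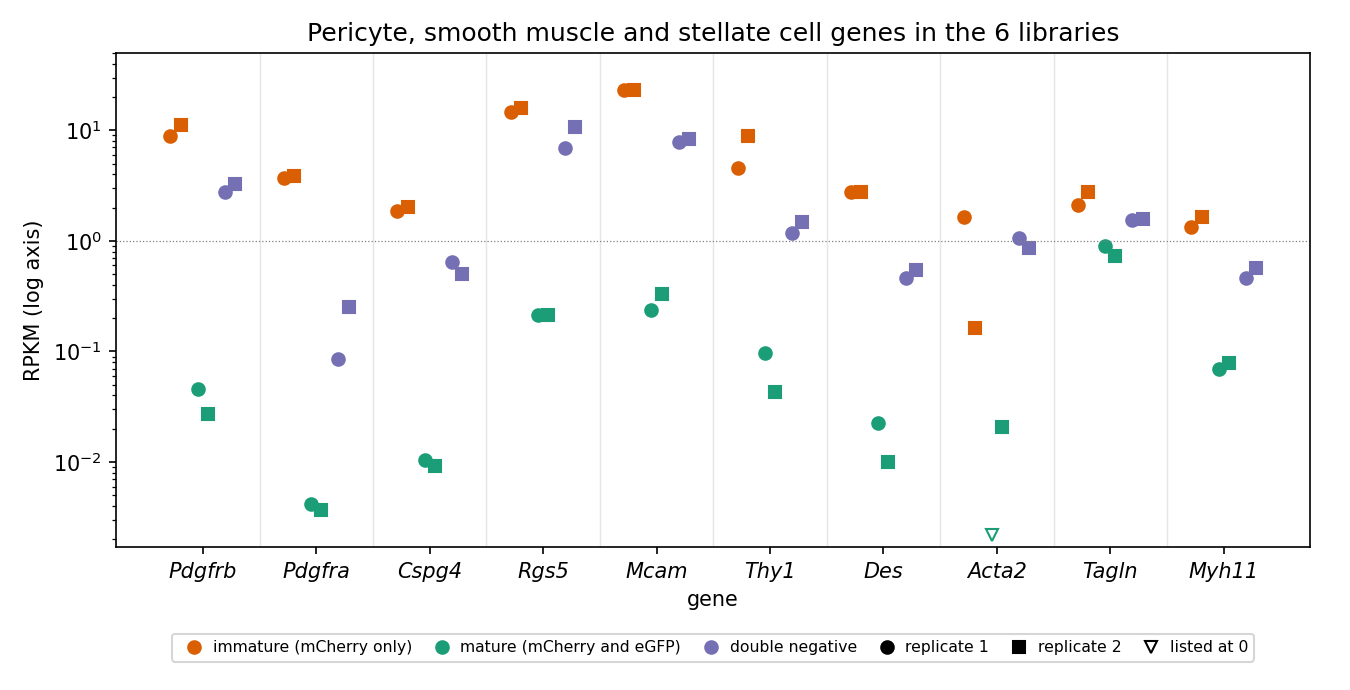
Level of each of the 10 genes in the 6 libraries, in RPKM on a log axis; colour gives the sorted population, circles are replicate 1 and squares replicate 2, the open triangle is the value listed at 0, and the dotted line is 1 RPKM. The immature libraries are highest for every gene but Acta2, whose immature values of 1.64 and 0.163 lie on either side of the double negative ones, and the mature libraries are lowest for every gene.

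Pdgfrb, the receptor for PDGF-B and the most widely used pericyte gene, was 8.92 and 11.2 RPKM in the immature pair of libraries, 0.0462 and 0.0272 in the mature pair, and 2.76 and 3.28 in the double negative pair. The 3 populations did not overlap, with the immature highest and the mature at the level of 6 and 4 reads. The immature libraries were higher than the mature by 3.41 ± 0.13 on the log2 scale (SE, limma adjusted p = 9.67e-06) and higher than the double negative by 1.46 ± 0.13 (adjusted p = 0.000372). In depth-scaled reads over both libraries, this was 3.40 times the double negative level (95% interval 2.98 to 3.88) and 285 times the mature level (153 to 599). The added 1 RPKM shrinks the log2 difference of low genes, which is why the ratios of reads are given beside it.

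Pdgfra, the receptor for PDGF-A and other dimers, is known from fibroblasts and other mesenchymal cells rather than from capillary pericytes. It was 3.67 and 3.85 RPKM in the immature pair of libraries, 0.00421 and 0.00372 in the mature pair, and 0.0859 and 0.255 in the double negative pair. The mature values are 1 read each. The double negative ones are 19 and 58 reads, and replicate 2, the higher, also had the higher acinar sum of that pair (2003 against 241 RPKM). In the immature pair the acinar sum was 8452 and 26626 RPKM, while the Pdgfra values were close to each other. A link between the acinar sum and Pdgfra was not tested. The immature to double negative ratio of reads was 22.0 (95% interval 16.9 to 28.9), the highest of the 10, and the log2 difference was 2.03 ± 0.11. Between the mature and the double negative libraries the difference of -0.22 ± 0.11 did not pass (adjusted p = 0.157), although the values did not overlap. Voom on the recovered reads called it, at an adjusted p of 0.000561.

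Within a library, Pdgfra was 0.411 and 0.343 of the Pdgfrb level in the immature population and 0.0311 and 0.0777 in the double negative. These ratios did not overlap between the populations. They are given without a p-value, since the filter selected a high immature level of Pdgfra. For the ratios of other genes below, with 2 libraries against 2, an exact two-sided permutation test cannot go below p = 0.333.

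Cspg4, the NG2 proteoglycan on the surface of pericytes and of some glial precursors, was 1.87 and 2.02 RPKM in the immature pair of libraries, 0.0105 and 0.00926 in the mature pair, and 0.642 and 0.503 in the double negative pair. The immature minus double negative difference was 0.91 ± 0.10 on the log2 scale, and its ratio of reads, 3.42 (95% interval 2.65 to 4.40), was close to that of Pdgfrb. The per-library ratio of Cspg4 to Pdgfrb was 0.209 and 0.180 in the immature libraries and 0.232 and 0.153 in the double negative, which overlap.

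Rgs5, a regulator of G protein signalling that is abundant in pericytes, was 14.5 and 15.9 RPKM in the immature libraries, 0.213 in both mature libraries and 6.93 and 10.7 in the double negative. Its ratio of reads between immature and double negative, 1.74 (95% interval 1.55 to 1.93), was the smallest of the genes called in that comparison apart from Tagln. The log2 difference of 0.75 ± 0.18 passed as deposited (limma adjusted p = 0.0153) but not after median-ratio rescaling (0.0625), after quantile normalization (0.0761) or with every gene above 0 tested (0.0505). Per unit of Pdgfrb, Rgs5 was 1.63 and 1.42 in the immature libraries and 2.51 and 3.26 in the double negative, which did not overlap (exact permutation p = 0.333, the smallest possible).

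Mcam, the adhesion molecule CD146 of pericytes, smooth muscle and endothelium, had the highest mean of the 10 in the immature libraries, at 22.9 RPKM in each of them, against 0.239 and 0.334 in the mature pair and 7.78 and 8.42 in the double negative pair. Its difference between immature and mature was 4.22 ± 0.08 on the log2(RPKM + 1) scale (limma adjusted p = 1.15e-06). This was the largest of the 10 on that scale only, since its ratio of reads, 79.3, was below those of Pdgfra (956) and Pdgfrb (285). Against the double negative it had a ratio of reads of 2.83 (95% interval 2.53 to 3.16). In the double negative libraries the Rgs5 values of 6.93 and 10.7 lie on either side of those of Mcam, so the order of the top pair differs from the immature libraries only within the spread of Rgs5.

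**Figure D2:**
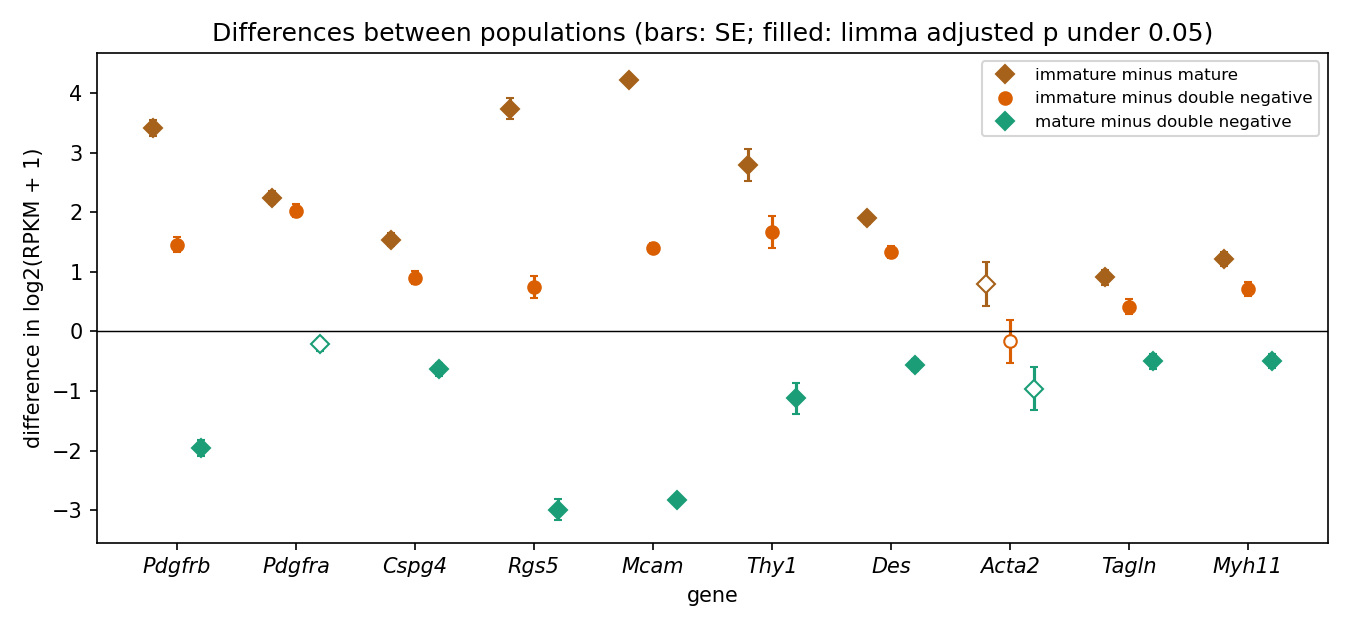
Difference in log2(RPKM + 1) between populations for each of the 10 genes, with bars for the standard error. Filled symbols passed a limma adjusted p under 0.05 and open ones did not. For Pdgfra, Cspg4, Des and Myh11 the filter selected a high immature level, so their filled symbols against the immature libraries are a description. Mcam has the largest difference between immature and mature on this scale, 4.22, and the open symbols are those of Acta2 in all 3 comparisons and of Pdgfra between mature and double negative.

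Thy1, a surface glycoprotein of fibroblasts and stellate cells that T cells and neurons also carry, was 4.57 and 8.86 RPKM in the immature pair of libraries, 0.0972 and 0.0430 in the mature pair, and 1.18 and 1.50 in the double negative pair. The immature values rest on 19 and 53 reads, and both lie above those of the other 4 libraries. The difference from the double negative libraries was 1.67 ± 0.26 (limma adjusted p = 0.0031) and that from the mature 2.79 ± 0.26 (adjusted p = 0.000288). The summed level of 5 T cell markers reached 0.861 and 0.594 RPKM in the immature pair, 3.85 and 3.53 in the double negative pair, with Cd3d listed at 0 in all 6. Lck alone made up most of each sum, at 0.570 and 0.594 RPKM in the immature pair and 3.59 and 3.17 in the double negative pair.

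Des, the muscle intermediate filament desmin that pericytes and quiescent stellate cells also contain, was 2.78 RPKM in both immature libraries, 0.0225 and 0.00993 in the mature pair, and 0.459 and 0.551 in the double negative pair. Its difference from the double negative libraries was 1.33 ± 0.10 on the log2 scale, a ratio of reads of 5.50 (95% interval 3.89 to 7.74). Of 6 markers of skeletal muscle, which is rich in desmin, the sum came to 0.875 and 0.607 RPKM in the immature pair, and Tnnt3, Myl1 and Myh4 were listed at 0 in all 6 libraries.

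The contractile genes were low in every library. Acta2, the smooth muscle actin of arterioles and activated stellate cells, was 1.64 and 0.163 RPKM in the immature pair of libraries, 0 and 0.0209 in the mature pair, and 1.07 and 0.865 in the double negative pair. The immature values are 7 reads and 1 read, with 95% intervals of 0.660 to 3.38 RPKM and 0.00412 to 0.907 RPKM. The immature and double negative values overlap, while the mature values lie below those of both other populations. No comparison of Acta2 passed, with limma adjusted p of 0.102 against the mature, 0.727 against the double negative, and 0.0693 between mature and double negative. The immature to double negative difference of -0.16 ± 0.36 was decided by single libraries: it was -0.76 without immature replicate 1 (adjusted p = 0.00134) and 0.43 without immature replicate 2 (adjusted p = 0.00981). The ratio of reads over both libraries, 0.797, had a 95% interval of 0.332 to 1.65, which reaches to both sides of equal levels. That interval covers counting error only and not the gap between the immature libraries. Voom on the recovered reads called the lower level in the mature libraries, against the double negative (adjusted p = 0.000158) and against the immature (adjusted p = 0.00178). It did not call immature against double negative (adjusted p = 0.378). The mature pair held 1 read of Acta2 in all.

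Myh11, the smooth muscle myosin heavy chain, was 1.32 and 1.66 RPKM in the immature pair of libraries, 0.0699 and 0.0787 in the mature pair, and 0.458 and 0.570 in the double negative pair, and the populations did not overlap. The immature minus double negative difference was 0.72 ± 0.12 on the log2 scale, a ratio of reads of 2.96 (95% interval 2.15 to 4.02). After quantile normalization no comparison of Myh11 passed, the differences keeping their sign.

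Tagln, the actin-binding protein SM22 of smooth muscle, was 2.11 and 2.74 RPKM in the immature pair of libraries, 0.904 and 0.729 in the mature pair, and 1.54 and 1.58 in the double negative pair. It was the highest of the 10 in the mature libraries, where it rests on 34 and 31 reads. It lies on chromosome 9 (45929619 to 45936058, minus strand, GRCm38, from the GENCODE annotation), and 62.4% of its exonic bases are shared with the antisense gene Gm48529 and 5.43% with the plus-strand gene Pcsk7. The library kit did not mark strand, so reads of Tagln and of these genes cannot be told apart there. Pcsk7 was 12.1 and 10.3 RPKM in the immature pair of libraries, 6.75 and 6.92 in the mature pair, and 7.39 and 7.56 in the double negative pair. The immature to double negative difference of 0.41 ± 0.12 passed (limma adjusted p = 0.0329), but the 95% interval of the ratio of reads, 1.59, ran from 0.967 to 2.51. The call was lost under 10 of 14 alternatives, and the sign turned under quantile normalization.

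**Figure D3:**
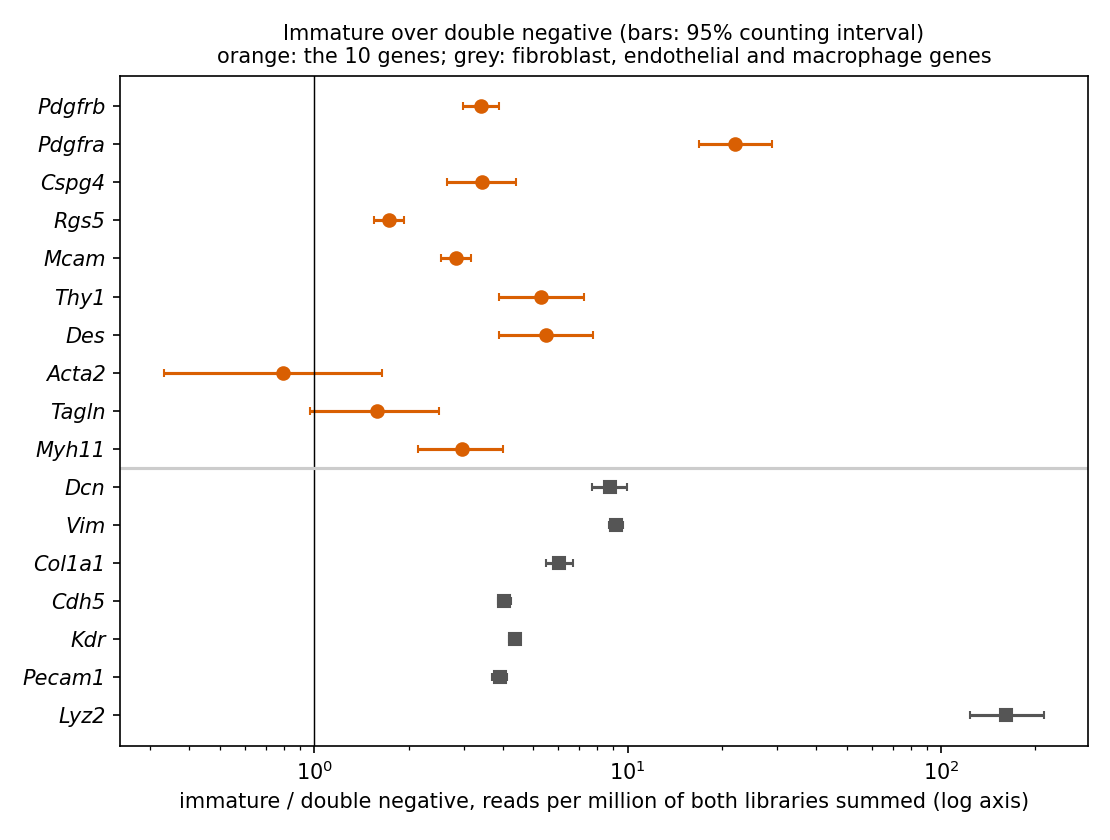
Ratio of immature to double negative in depth-scaled reads, summed over both libraries of each population, on a log axis; bars are 95% intervals for counting error, orange is the 10 genes and grey is 7 genes of fibroblasts, endothelium and macrophages. Pdgfra stands at 22.0, beyond Dcn and Vim at 8.76 and 9.19, while Rgs5 stands at 1.74, below the 3 endothelial genes drawn, at 3.91 to 4.36, and the interval of Acta2 spans 1.

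In the mature pair of libraries Pdgfrb had 10 reads in all, and Pdgfra, Cspg4, Thy1, Des and Acta2 had 1 to 6, while Rgs5 and Mcam had 49 each, Myh11 25 and Tagln 65. In depth-scaled reads, Pdgfrb stood at 0.0119 of the double negative level (95% interval 0.00570 to 0.0221), Rgs5 at 0.0242 (0.0178 to 0.0321) and Mcam at 0.0357 (0.0263 to 0.0475). On the log2 scale these 3 genes were lower by differences of -1.95 ± 0.13, -2.99 ± 0.18 and -2.82 ± 0.08. Cspg4 with 4 reads in the mature pair and Des with 3 also passed, at differences of -0.64 and -0.57 (limma adjusted p = 0.00339 and 0.00412). Tagln stood at 0.519 of the double negative level (95% interval 0.376 to 0.711) and Myh11 at 0.145 (0.0909 to 0.222). Thy1, Tagln and Myh11 passed with all libraries, at limma adjusted p of 0.0138, 0.0174 and 0.0141, but none of them did without mature replicate 1, without mature replicate 2 or without double negative replicate 2.

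The ratios can be set beside those of cell types that the same sorts held. Endothelial Cdh5, Kdr and Pecam1 stood at 4.05, 4.36 and 3.91 times the double negative level in the immature libraries, fibroblast Dcn, Vim and Col1a1 at 8.76, 9.19 and 6.05, and macrophage Lyz2 at 161 (95% interval 124 to 212). Over the 10 endothelial markers the ratios ran from 2.30 (Vwf) to 4.39 (Emcn). Pdgfrb (3.40), Cspg4 (3.42), Mcam (2.83) and Myh11 (2.96) lay within that range. The ratios of Thy1 (5.31) and Des (5.50) were above it and below those of Dcn, Vim and Col1a1. Their intervals reach 3.87 and 3.89 at the lower end and 7.24 and 7.74 at the upper. These 3 fibroblast genes are part of a list of 21, whose other members had smaller as well as larger ratios. Lum averaged 2.67 RPKM in the immature libraries against 1.07 in the double negative, and Pdpn 53.8 against 5.33. Per unit of Cdh5, the endothelial cadherin, Pdgfrb was 0.0712 and 0.0898 in the immature pair of libraries, 0.0929 and 0.104 in the mature pair, and 0.0887 and 0.107 in the double negative pair, so that the immature and double negative ranges overlap (exact permutation p = 0.667). Per unit of Cdh5, Mcam was 0.183 and 0.184 in the immature libraries against 0.250 and 0.274 in the double negative, and Rgs5 was 0.116 and 0.127 against 0.222 and 0.348; neither pair of ranges overlaps (exact permutation p = 0.333 for both).

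Most other pericyte genes were highest in the immature libraries, and a few were not. Of 18 listed, 14 could be tested. Between immature and mature libraries 12 were higher (49.8% of all genes were) and 2 lower, and between immature and double negative 11 were higher (45.9% of all genes) and 3 lower. Of the 14, 7 (Abcc9, Notch3, Vtn, Cox4i2, Heyl, Gucy1a3 and Trpc6) reached the filter through the immature libraries alone, so these counts are a description. Between mature and double negative 1 was higher (23.1% of all genes were), 10 were lower (31.2% of all genes) and 3 did not pass. Their medians were 1.21, 0.86 and -0.48 on the log2 scale. After quantile normalization 8, 6 and 1 were higher and 2, 3 and 5 lower in these comparisons, and Notch3 (immature against double negative) and Abcc9, Cox4i2 and Ndufa4l2 (mature against double negative) changed sign. Kcnj8 and Abcc9, the subunits of the pericyte potassium channel, were 3.66 and 1.90 RPKM on average in the immature libraries and 1.30 and 0.612 in the double negative, and Notch3, a receptor needed by mural cells, was 1.11 and 0.397. The exceptions were Rgs4, Enpep, Steap4 and Gucy1b3. Rgs4, another regulator of G protein signalling, was 141 and 130 RPKM in the immature pair of libraries, 286 and 285 in the mature pair, and 379 and 346 in the double negative pair. Enpep, the aminopeptidase that cleaves angiotensin II, was 17.4 and 17.3 RPKM in the immature pair, 37.7 and 36.5 in the mature pair, and 5.67 and 6.52 in the double negative pair. Steap4, a metalloreductase, averaged 39.9 RPKM in the double negative libraries against 16.6 in the immature, and Gucy1b3, a subunit of the nitric oxide receptor, averaged 5.75 against 4.53.

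Several regulators and contractile genes of mural cells were near the limit of detection. Tbx18 averaged 0.208 RPKM in the immature libraries and 0.0189 in the double negative and was listed at 0 in the mature, and Nkx3-2 had a value above 0 in 1 library only, 0.169 RPKM in immature replicate 2. Of 15 further smooth muscle genes, 6 could be tested. All 6 were higher in immature than mature (49.8% of all genes were), with a median of 1.43, and 5 of 6 were higher in immature than double negative (45.9% of all genes), with a median of 0.81. Tpm2 and Mustn1 reached the filter through the immature libraries alone. In mature against double negative 5 of 6 were lower (31.2% of all genes were), with a median of -0.75. Srf, the serum response factor, was the gene that did not pass between immature and double negative, and its difference changed sign after median-ratio and quantile scaling. Mustn1 changed sign in mature against double negative after quantile normalization. Those 6 include genes that many cells use, such as Tpm1 for tropomyosin (28.3 and 28.8 RPKM immature, 11.6 in both mature, 20.5 and 22.3 double negative) and Cald1 for caldesmon (16.7 and 14.5, then 1.65 and 1.58, then 8.79 and 9.82). Smtn, smoothelin, averaged 5.03, 0.0875 and 1.40 RPKM. Cnn1, calponin, was listed at 0 in all 6 libraries, and Myocd, the coactivator of the smooth muscle programme, was 0.195 RPKM in immature replicate 1, 0.0137 in double negative replicate 2 and 0 in the other 4.

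Matrix and other genes of stellate cells and fibroblasts were high in the immature libraries. Of 21 listed, 15 could be tested, and all 15 were higher in the immature libraries than in either other population (49.8% and 45.9% of all genes were). Of the 15, 4 reached the filter through the immature libraries alone. In mature against double negative 13 were lower (31.2% of all genes were) and 2 did not pass. Their medians were 3.70, 1.98 and -1.40 on the log2 scale. In immature against mature and in immature against double negative, no gene of this list changed sign under the other scalings. Vim, vimentin, was 128 and 97.5 RPKM in the immature pair of libraries, 0.169 and 0.259 in the mature pair, and 11.9 and 12.0 in the double negative pair. Dcn, the collagen-binding proteoglycan decorin, was 60.7 and 32.7, then 0.0405 and 0.107, then 4.44 and 5.64. Col3a1, a fibrillar collagen, was 23.2 and 12.8, then 0.0558 and 0.0114, then 1.81 and 1.99, so immature replicate 1 was the higher of its pair for Vim, Dcn and Col3a1 but not for Pdgfra. Sparc, a matrix glycoprotein, averaged 131, 0.507 and 30.8 RPKM in immature, mature and double negative libraries. Pdpn, podoplanin, averaged 53.8, 0.0424 and 5.33, and Timp1, an inhibitor of matrix proteases, 47.4, 0.555 and 13.9. Endothelial cells and macrophages also express Vim, and lymphatic endothelium also expresses Pdpn. The stellate cell genes of vitamin A storage and of the quiescent state were scarce: Lrat, the retinol esterifying enzyme, was 0 in the immature and double negative libraries and 0.0236 and 0.0279 RPKM in the mature, and Gfap was 0.0990 and 0.344 in the immature libraries, 0 in the mature, and at most 0.0417 in the double negative.

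**Figure D4:**
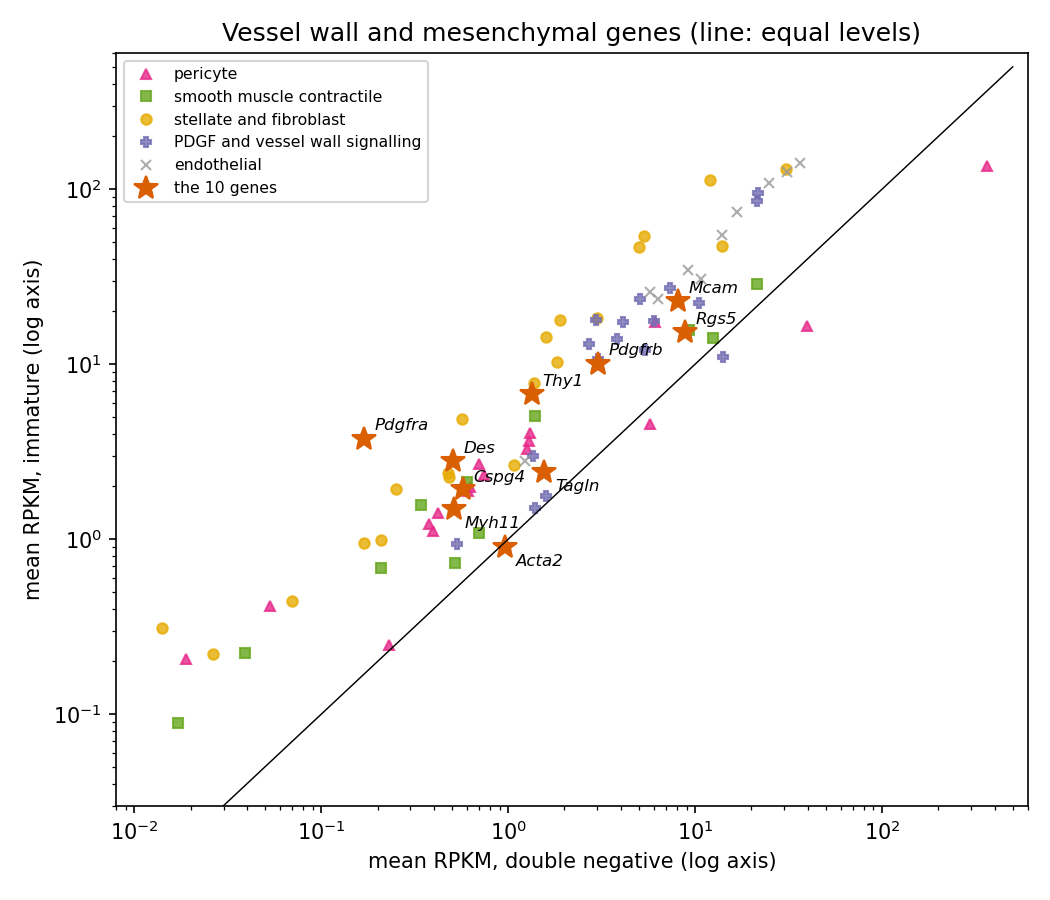
Mean RPKM of each gene in the immature libraries against that in the double negative libraries, both on log axes, for the 10 genes (stars) and the lists of pericyte, smooth muscle, stellate, vessel wall signalling and endothelial genes; genes at 0 in either population are not drawn, and the line marks equal levels. Most points lie above the line, Pdgfra lies far above it at 3.76 against 0.170, and Acta2, Rgs4, Steap4, Gucy1b3 and Cdh2 lie below it.

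Most ligands and receptors of vessel wall signalling were highest in the immature libraries. Of 17 listed, 16 could be tested, and all 16 were higher in immature than mature (49.8% of all genes were), with a median of 3.51. In immature against double negative 13 were higher (45.9% of all genes were), 1 was lower and 2 did not pass, with a median of 1.58. In mature against double negative 14 were lower (31.2% of all genes were) and 2 did not pass, with a median of -1.54. Under the other scalings Cdh2 and Tgfb3 changed sign in the first comparison and Pdgfd and Tgfb2 in the second. Pdgfb, the ligand of PDGF receptor beta, was 23.0 and 24.0 RPKM in the immature pair, 0.983 and 0.907 in the mature pair and 5.08 in both double negative libraries, a difference from the double negative of 2.01 (limma adjusted p = 1.76e-05). Pdgfa, the ligand of PDGF receptor alpha, had a level in every population: 9.64 and 14.5, then 4.93 and 4.23, then 5.58 and 5.20. Pdgfd, another ligand of the beta receptor, was 1.47 and 2.05 RPKM in the immature pair against 1.35 and 1.83 in the double negative pair, a difference of 0.09 that did not pass (adjusted p = 0.647). S1pr1, the sphingosine phosphate receptor of endothelium, averaged 85.6, 0.246 and 21.4 RPKM in the immature, mature and double negative libraries. In the same order Angpt2, which acts on the Tie2 receptor, averaged 95.5, 2.06 and 21.8, Edn1, endothelin, 27.1, 0.111 and 7.36, and Tgfb1, a growth factor that activates stellate cells, 18.0, 0.591 and 2.93. Cdh2, the N-cadherin of endocrine cells as well as of pericytes, was the gene that was lower, at 11.0 RPKM against 14.2.

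Over the 6 libraries, many genes followed the same order of populations, and the likeness of single genes is a description only. Of 8714 genes with at least 5 RPKM in one population, 243 had a Pearson correlation over 0.99 with Pdgfrb in log2(RPKM + 1), led by Dennd3, Hspg2, Col18a1, Myct1 and Cbl. For Pdgfra 254 did, led by S100a6, Macf1, Hmha1, Cytip and Nfe2l2. For Rgs5 104 did, led by Lpp, Kmt2e, Fundc1, Fam107b and Zcchc11, and for Acta2 3 did, Plekhj1, Tfe3 and Tsen54. The 6 points share 3 populations and the gap in depth between the immature and the other libraries. Among the 10 genes themselves the correlation of Pdgfra with Rgs5 was 0.72 and with Des 0.98, while that of Acta2 with the other 9 was between 0.32 and 0.70.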

How the data were processed

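RNA of 3 sorted islet populations, 2 libraries each, was measured by sequencing of TruSeq RNA v2 libraries, per the labels' protocols. The authors deposited RPKM values for 46959 genes; the submitters' processing notes name STAR 2.5, featureCounts, edgeR 3.14.0 and the build GRCm38.p4, with no roles given. Genes with at least 1 RPKM in at least 2 of 6 libraries (13367) were fitted with limma 3.58.1 in R 4.3.3 on log2(RPKM + 1), one mean per population, a shared spread (3 residual degrees of freedom), an intensity trend and Benjamini-Hochberg adjustment at 0.05; the fit was tested on simulated data. Low values are whole multiples of 1 read. With GENCODE M21 lengths 19128 of 24504 genes above 0 came out whole within 0.02 reads. Where they did not, a length was fitted from the steps, which brought the share to 97.4%. Genes with a fitted length include Thy1, Acta2, Tagln, Myh11 and Cspg4. For them the lowest whole numbers that a length of at least the coding sequence allows were taken. Voom on these reads, over 12860 genes, called 6334 higher and 1723 lower in immature against mature. It called 5770 and 1079 in immature against double negative, and 3726 and 5314 in mature against double negative. Ratios of reads carry exact 95% intervals.

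The replicates are separate pools, so p-values measure the spread between pools. The main fit left out the replicate number, by which libraries of different populations may share a pool. The 10 genes, the lists and the tests were chosen with earlier results of these data known. Named from each list were up to 4 genes with the largest difference past the threshold and at least 5 RPKM in the higher population; others were named for their role. Alternatives were another pseudocount (0.1), other filters (5 RPKM, any value above 0), median-ratio and quantile scaling, no trend, a replicate block, only the 4 libraries compared, voom and leaving out each library. The annotation release the authors counted on is not given in the sources used here.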

Additional observations from a re-analysis of the deposited data

How the results depend on the processing

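With a filter of 5 RPKM only 3 of the 10 genes (Pdgfrb, Rgs5 and Mcam) could be tested, and all 3 were called in every comparison. Leaving out 1 library at a time gave 9 to 10 genes higher in immature than mature, 8 to 10 higher and 0 to 1 lower in immature than double negative, and 5 to 9 lower in mature than double negative. The count of 5 came without mature replicate 1, without mature replicate 2 or without double negative replicate 2, where Thy1, Tagln and Myh11 no longer passed. The 1 gene lower was Acta2 without immature replicate 1 (-0.76 on the log2 scale), and Acta2 turned to 0.43 without immature replicate 2. Quantile normalization left 4 genes lower in mature than double negative and turned Tagln to -0.063 between immature and double negative. The cause was not tested. Voom called 10, 8 and 10 genes and the pseudocount of 0.1 called 10, 9 and 10.

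Same-numbered deviations correlated between populations at -0.00933, 0.140 and -0.112 over 13367 genes. Low correlations cannot tell whether libraries with the same replicate number came from a shared pool. With the replicate number as a block, which also carries the sex label, 9, 8 and 8 genes were called; Tagln between immature and double negative was lost (limma adjusted p = 0.0559).

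Over the alternatives for single genes, 138 values for immature against mature, 127 for immature against double negative and 118 for mature against double negative kept their direction and side of the threshold. In the same order 2, 13 and 17 values lost the call, 3, 1 and 8 gained it, and 2 in the second comparison changed sign. Depth limits Acta2, Tagln and Thy1 in the immature libraries, and Pdgfrb, Pdgfra, Cspg4, Thy1, Des and Acta2, at 10 reads or fewer over both libraries, in the mature ones; leaving out a library of a pair assumes that the other varies as the remaining groups do.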
